A study of Mus musculus with 10 samples.

Results

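The VEGF and angiopoietin genes are the ligands and receptor tyrosine kinases that direct the growth of blood and lymphatic vessels. They were chosen by symbol, as the 10 genes Vegfa, Vegfb, Vegfc, Kdr, Flt1, Flt4, Tek, Tie1, Angpt1 and Angpt2. All 10 were among the 17737 genes counted, and all 10 passed the filter on low counts that left 13798 genes to test. Bulk RNA was sequenced from tumors that grew in the right flank of C57BL/6 mice from subcutaneously implanted cells of B16-F10, a mouse melanoma line. The D69A group held 5 tumors (numbered 1 to 5) whose implanted cells overexpressed an IL-18 with alanine in place of aspartate at position 69. The WT group held 5 tumors (numbered 2 to 6) whose implanted cells overexpressed unaltered IL-18. IL-18 is a cytokine that caspases cleave to its active form and that stimulates T and NK cells to make interferon-gamma. All tumors were collected on day 11. Both groups carry an overexpressed IL-18, and no tumor without one was analysed here. The labels give neither the promoter that drives IL-18, nor whether each line is 1 clone, nor the age or sex of the mice, and they do not say that each tumor came from its own mouse. The p-values therefore measure the spread between these samples, and a difference between the 2 cell lines cannot be told apart from the substitution.

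VEGF-A binds KDR (VEGFR2), which carries most of the mitogenic signal in endothelial cells, and FLT1 (VEGFR1), which binds VEGF-A more tightly and also serves as a decoy. VEGF-B binds FLT1, and VEGF-C binds FLT4 (VEGFR3), the receptor of lymphatic endothelium that is also present on sprouting blood vessels. Angiopoietin 1, made mostly by cells around the vessel, activates TEK (TIE2) and keeps vessels quiescent, whereas angiopoietin 2, stored in endothelial cells, mostly opposes it, and TIE1 is a partner receptor that modulates TEK. In solid tumors VEGF-A is made by tumor cells and macrophages and is induced by low oxygen, and a tumor's vessels are commonly leaky with many sprouts.

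Total counts lay between 34400949 and 37578722 in D69A tumors and between 25904345 and 37556163 in WT tumors. Levels are given as CPM, the count scaled to library size with TMM factors, and 3 counts came to between 0.0775 and 0.115 CPM. The labels call the cell type melanoma cells, and melanocyte markers were abundant, summing to 24803 to 31736 CPM over 10 genes in D69A tumors and 16836 to 20896 CPM in WT tumors. Markers of host cells were present as well, so the values describe tissue and not tumor cells alone. The 20 endothelial markers, which include none of the 10 genes, summed to 208 to 281 CPM in D69A tumors and 324 to 422 CPM in WT tumors, with no overlap and with none of the 20 at 0. In bulk tissue, fewer cells of a type and less RNA per cell cannot be told apart. Skeletal muscle markers, a sign of adjoining tissue, were high in single tumors of both groups, at 561 summed CPM in D69A tumor 1, 1079 in WT tumor 3 and 1599 in WT tumor 4, and results were computed with and without these 3.

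The stretch before the start of transcription is shown for 2 receptors that were lower in D69A tumors (Kdr and Tek), a receptor that did not pass the test (Flt1) and the ligand that was higher (Vegfb). The bases run from 250 to 11 before the RefSeq start, 5′ to 3′ on the strand of the gene, on GRCm38.p6, which shares its chromosome coordinates with mm10. Capitals mark each AGGAAG, a core recognised by ETS factors of endothelial cells, and each GGGCGG, the GC box, on either strand.
Kdr (chr5:75978466-75978705, minus strand): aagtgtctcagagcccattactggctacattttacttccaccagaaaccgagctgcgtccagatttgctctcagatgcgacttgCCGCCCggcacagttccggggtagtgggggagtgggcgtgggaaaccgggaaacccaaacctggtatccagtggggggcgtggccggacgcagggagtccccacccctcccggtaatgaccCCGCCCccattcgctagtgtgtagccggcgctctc
Tek (chr4:94739039-94739278, plus strand): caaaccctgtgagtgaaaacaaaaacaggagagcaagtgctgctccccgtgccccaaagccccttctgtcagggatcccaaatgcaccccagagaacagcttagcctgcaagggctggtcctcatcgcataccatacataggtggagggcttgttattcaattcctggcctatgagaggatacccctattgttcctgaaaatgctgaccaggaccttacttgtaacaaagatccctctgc
Flt1 (chr5:147726022-147726261, minus strand): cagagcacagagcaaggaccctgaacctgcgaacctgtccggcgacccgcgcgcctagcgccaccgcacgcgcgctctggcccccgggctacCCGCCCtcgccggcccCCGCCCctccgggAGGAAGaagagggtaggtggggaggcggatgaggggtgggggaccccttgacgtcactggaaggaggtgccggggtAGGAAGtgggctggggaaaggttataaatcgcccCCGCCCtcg
Vegfb (chr19:6987662-6987901, minus strand): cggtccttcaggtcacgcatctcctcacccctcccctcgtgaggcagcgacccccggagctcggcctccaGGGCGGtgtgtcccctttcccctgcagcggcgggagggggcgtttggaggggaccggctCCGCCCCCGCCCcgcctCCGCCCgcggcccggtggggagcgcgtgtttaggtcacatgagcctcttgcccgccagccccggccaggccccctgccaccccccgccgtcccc
AGGAAG occurred 2 times before Flt1 and 0 times before Kdr, Tek and Vegfb. GGGCGG occurred 2 times before Kdr, 3 times before Flt1, 4 times before Vegfb and 0 times before Tek, and no match overlapped another. Of all 32851 RefSeq promoter windows of this length, 28.4% held AGGAAG and 31.3% held GGGCGG. The sequence searched for the hypoxia response element, whose core is ACGTG, was not found on either strand in these 4 windows and occurred in 15.9% of all windows. Of the windows not printed, that of Tie1, the third receptor gene that was lower, held 1 AGGAAG, and a second window of Vegfa held 1 ACGTG. Annotated exons cover 202 of the 240 bases of that Tie1 window and 218 of that Vegfa window. The letters matched are a description of these windows. RefSeq entries were matched for 8 of the 10 genes, and Angpt1 and Angpt2 had none.

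D69A tumors were set against WT tumors to see which vessel ligands and receptors differ between the forms of IL-18 overexpressed. Of the 10 genes, Angpt1, Tek, Tie1 and Kdr were lower in D69A tumors, by 5.11, 3.81, 1.90 and 1.71 fold, and Vegfb was higher by 1.16 fold. Vegfa, Vegfc, Angpt2, Flt1 and Flt4 did not pass the threshold, which was an adjusted p under 0.05. The test was the quasi-likelihood test of edgeR, adjusted by Benjamini-Hochberg over all 13798 genes. The same rule called 43.5% of all genes, 24.7% as lower and 18.8% as higher in D69A tumors, so 5 called of 10 is a share near the background. The median log2 fold change of the 10 genes was -0.39, against 0.00 over all genes tested.

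Of the 5 ligand genes among the 10, Angpt1 had the largest fold change, and Vegfd, a VEGF ligand gene outside the 10 that is described with the wider pathway, had a larger one. Angpt1 (chromosome 15, 42424723 to 42676977 in mm10, minus strand) stood at 0.321, 0.445, 0.541, 0.148 and 0.136 CPM in D69A tumors 1 to 5 and at 1.03, 2.62, 0.930, 2.84 and 0.727 CPM in WT tumors 2 to 6. Every D69A tumor was below every WT tumor, and WT tumors 3 and 5 were well above the other WT tumors. Of all genes, 29.4% had no overlap between the groups, 17.4% with every D69A tumor below. On the log2 scale the change was -2.35 (SE 0.52, edgeR adjusted p = 0.00465). The level was low throughout, resting on 5 to 18 counts in D69A tumors and 19 to 106 counts in WT tumors. Exons of the annotated gene Gm17473 lie opposite 14.2% of the Angpt1 exon sequence, and the use of strand in counting is not given in the sources used here. Exons of the other 9 genes overlap no other annotated gene.

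The antagonist Angpt2 (chromosome 8, 18690263 to 18741562, minus strand) stood at 49.9, 68.6, 67.01, 66.5 and 60.7 CPM in D69A tumors and at 64.7, 60.1, 54.7, 61.4 and 70.8 CPM in WT tumors. The groups overlapped almost entirely, with D69A tumor 1 the lowest of all 10 tumors. Its log2 fold change was 0.01 with a 95% interval of -0.18 to 0.19 (edgeR adjusted p = 0.971), so a change of 1.5-fold in either direction lies outside the interval.

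Vegfa, the main ligand of blood vessel growth (chromosome 17, 46016993 to 46032369, minus strand), stood at 77.8, 93.5, 120.4, 74.2 and 87.3 CPM in D69A tumors and at 71.1, 143, 114, 245 and 93.7 CPM in WT tumors. WT tumor 5 was the highest and WT tumor 2 the lowest of all tumors, so the WT values spanned the whole range of the D69A values. This gave a log2 fold change of -0.56 with a 95% interval of -1.12 to 0.01 (edgeR adjusted p = 0.141). Without WT tumor 2 the value was -0.71 and passed (adjusted p = 0.0436 in the same test), and without WT tumor 5 it was -0.18 (adjusted p = 0.467).

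Vegfb, a ligand of FLT1 that is linked to lipid uptake and cell survival more than to vessel growth (chromosome 19, 6982473 to 6987651, minus strand), stood at 118, 106, 119, 107 and 127 CPM in D69A tumors and at 112, 90.2, 99.6, 91.7 and 102 CPM in WT tumors. WT tumor 2 lay within the range of the D69A tumors, and the other WT tumors lay below all of them. The log2 fold change was 0.22 (SE 0.07, edgeR adjusted p = 0.0329). The call for this small increase was lost under upper quartile scaling (edgeR adjusted p = 0.0800), with library size only (0.105), without a low count filter (0.0618), without D69A tumor 5 (0.0802), without WT tumor 3 (0.0651) and when the 3 muscle-rich tumors were left out (0.196).

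Vegfc, the ligand of lymphatic growth (chromosome 8, 54077606 to 54187096, plus strand), stood at 20.4, 15.4, 14.96, 18.4 and 16.4 CPM in D69A tumors and at 15.8, 16.1, 17.9, 13.3 and 17.6 CPM in WT tumors. The groups overlapped, with the highest value in D69A tumor 1 and the lowest in WT tumor 5. On the log2 scale the change was 0.09 with a 95% interval of -0.13 to 0.31 (edgeR adjusted p = 0.557).

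**Figure D1:**
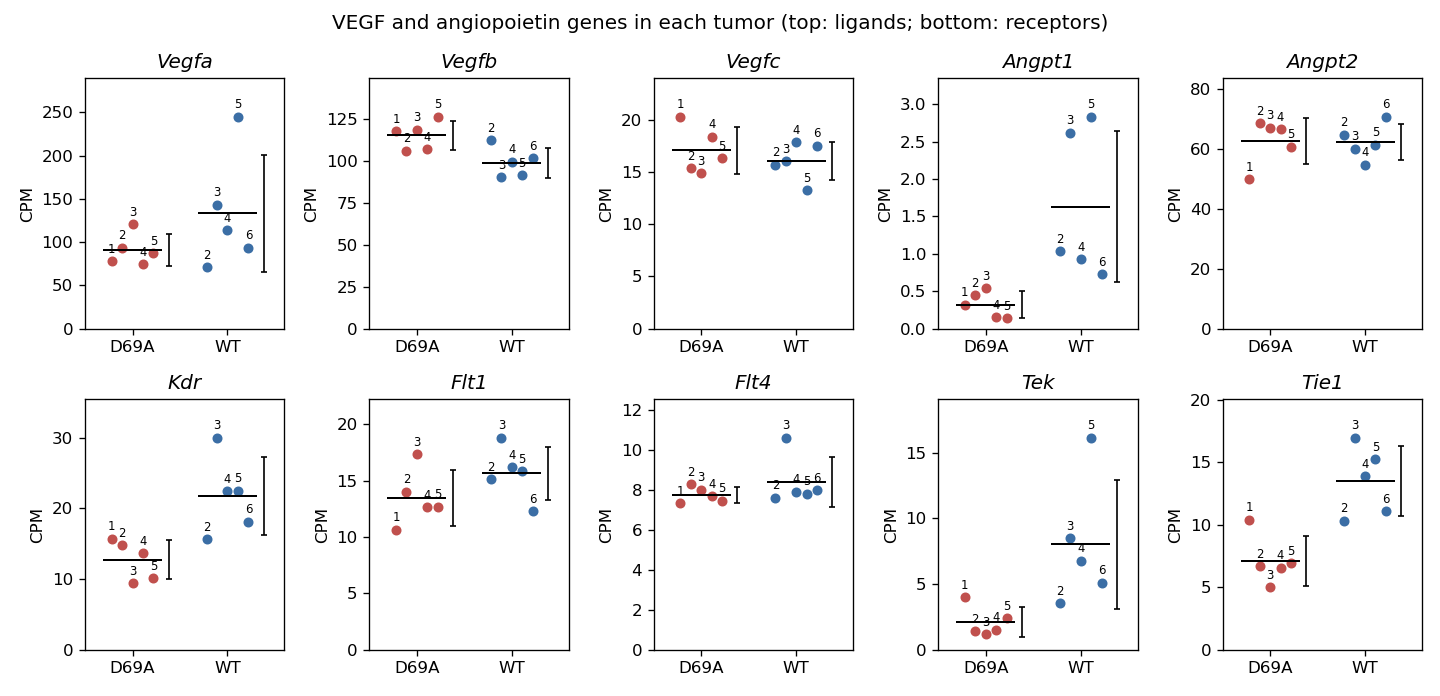
Level of each gene in CPM (y axis, from 0) in D69A tumors (red, left) and WT tumors (blue, right), with ligands in the top row and receptors in the bottom row. Points are tumors with their number, the horizontal line is the mean and the bar beside it the SD (n = 5 a group). Angpt1 is the gene without overlap between the groups, and WT tumor 5 stands at the top for Vegfa (245 CPM) and Tek (16.1 CPM).

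Of the receptors, the TIE family genes Tek and Tie1 and the VEGF receptor gene Kdr were lower in D69A tumors. Tek (chromosome 4, 94739289 to 94874976, plus strand) stood at 3.98, 1.42, 1.17, 1.51 and 2.39 CPM in D69A tumors and at 3.54, 8.50, 6.77, 16.1 and 5.09 CPM in WT tumors. D69A tumor 1 was above WT tumor 2, and every other D69A tumor was below every WT tumor. This gave a log2 fold change of -1.93 (SE 0.45, edgeR adjusted p = 0.00602).

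Tie1 (chromosome 4, 118471191 to 118490061, minus strand) stood at 10.4, 6.71, 4.99, 6.57 and 6.95 CPM in D69A tumors and at 10.3, 16.996, 13.9, 15.3 and 11.1 CPM in WT tumors. Again D69A tumor 1 was the one D69A tumor that reached into the WT range, just above WT tumor 2. The log2 fold change was -0.92 (SE 0.20, edgeR adjusted p = 0.00432).

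Kdr (chromosome 5, 75932827 to 75978458, minus strand) stood at 15.7, 14.8, 9.43, 13.7 and 10.1 CPM in D69A tumors and at 15.7, 30.03, 22.4, 22.5 and 18.1 CPM in WT tumors. D69A tumor 1 and WT tumor 2 were level with each other, and WT tumor 3 was the highest. On the log2 scale the change was -0.77 (SE 0.20, edgeR adjusted p = 0.00899). Without the 3 tumors highest in muscle markers the log2 fold changes of Angpt1, Tek, Tie1 and Kdr were -2.27, -2.34, -0.96 and -0.64, all past the threshold. These 4 genes kept their calls in all fits in which 1 tumor was left out, with adjusted p of at most 0.0251.

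The other VEGF receptor genes did not pass the test. Flt1, the high-affinity receptor of VEGF-A that monocytes also make (chromosome 5, 147561604 to 147726011, minus strand), stood at 10.6, 14.03, 17.3, 12.7 and 12.7 CPM in D69A tumors and at 15.1, 18.8, 16.2, 15.9 and 12.3 CPM in WT tumors, with a log2 fold change of -0.22 and a 95% interval of -0.50 to 0.06 (edgeR adjusted p = 0.240). Flt4 (chromosome 11, 49609263 to 49652739, plus strand) stood at 7.32, 8.27, 7.99, 7.66 and 7.44 CPM in D69A tumors and at 7.60, 10.6, 7.89, 7.79 and 7.96 CPM in WT tumors. Apart from WT tumor 3, which was the highest, the tumors lay close together for Flt4. Its log2 fold change was -0.11 with a 95% interval of -0.34 to 0.11 (edgeR adjusted p = 0.449).

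Levels of different genes can be set side by side per length, as CPM per kb of merged exon. On that scale Vegfb was the most abundant of the 10 genes in both groups, at 71.9 ± 5.32 in D69A tumors and 61.7 ± 5.57 in WT tumors (SD, n = 5 each). Vegfa followed with a level of 21.2 ± 4.28 CPM per kb in D69A tumors and 31.1 ± 15.9 in WT tumors, then Angpt2 with 16.9 ± 2.08 in D69A tumors and 16.9 ± 1.61 in WT tumors. Vegfc had 6.99 ± 0.922 CPM per kb in D69A tumors and 6.58 ± 0.744 in WT tumors. The 5 receptor genes lay below these ligands in every tumor. In WT tumors the receptor levels per kb ran from Tie1 (2.75 ± 0.570) through Kdr, Tek and Flt1 to Flt4 (1.02 ± 0.153), and each overlapped its neighbor in that order. In D69A tumors Tek came last of the receptors with a level of 0.444 ± 0.244 CPM per kb, below Flt4 in every tumor. Angpt1 was the lowest of the 10 genes in both groups, at 0.0611 ± 0.0344 CPM per kb in D69A tumors and 0.313 ± 0.195 in WT tumors. Vegfa and Angpt2 overlapped in both groups, and Vegfb and Vegfa overlapped in WT tumors, where WT tumor 5 was high in Vegfa.

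Endothelial markers were themselves lower in D69A tumors, with 19 of 20 past the threshold as lower, 0 as higher and a median log2 fold change of -0.90. To ask whether a gene changed by more or by less than the markers' sum, the fit across all genes was repeated with the summed endothelial marker count of each tumor as its library size. Vwf, the gene of von Willebrand factor, made up 101 ± 10.7 CPM of that sum in D69A tumors and 139.8 ± 11.4 CPM in WT tumors (SD, n = 5 each), with a log2 fold change of -0.47. Of the 20 markers themselves, 5 were called lower and 1 higher on this scale, with a median of -0.21, and Sox17, a transcription factor gene of arterial endothelium, was the lowest (-1.44, edgeR adjusted p = 0.00310). On this scale Kdr and Tie1 did not pass the test, with log2 fold changes of -0.07 (SE 0.16, edgeR adjusted p = 0.673) and -0.24 (SE 0.15, adjusted p = 0.150). Without D69A tumor 1 Tie1 passed as lower (-0.34, adjusted p = 0.0438).

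Tek and Angpt1 fell by more than the summed marker count. Per 100 CPM of endothelial markers, Tek came to 0.853 ± 0.357 CPM in D69A tumors and 2.03 ± 1.06 CPM in WT tumors (SD, n = 5 each), a log2 fold change of -1.24 (SE 0.34, edgeR adjusted p = 0.00287). The relative log2 fold change of Angpt1 was -1.59 (SE 0.47, adjusted p = 0.00501). The fall of Tek lay within the span of the single markers, since Sox17 fell by more. Against 6 core markers without Vwf the values were -1.29 for Tek and -1.64 for Angpt1, both past the threshold. Relative to all 20 markers, Flt1 and Flt4 were higher by 0.51 (SE 0.18, adjusted p = 0.0155) and 0.59 (SE 0.17, adjusted p = 0.00374). Flt4 came to 3.31 ± 0.489 CPM per 100 CPM of endothelial markers in D69A tumors and 2.21 ± 0.297 in WT tumors. Flt1 lost its relative call without D69A tumor 3 (0.34, edgeR adjusted p = 0.0612).

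The ligands Vegfb, Vegfc and Angpt2 were also higher relative to the vessel markers, with log2 fold changes of 0.89, 0.75 and 0.69 (edgeR adjusted p = 1.31e-04, 3.07e-04 and 0.00205), and Vegfa was not called (0.20, adjusted p = 0.443). Without WT tumor 5 Vegfa passed as higher (0.48, adjusted p = 0.0351). Of the 10 genes 5 were higher and 2 lower on this scale. On this scale the same rule called 84.4% of all genes, 70.7% as higher and 13.7% as lower, and the median of all genes was 0.69. The increases of Vegfc, Angpt2, Flt4 and Flt1 are to be read against that median.

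**Figure D2:**
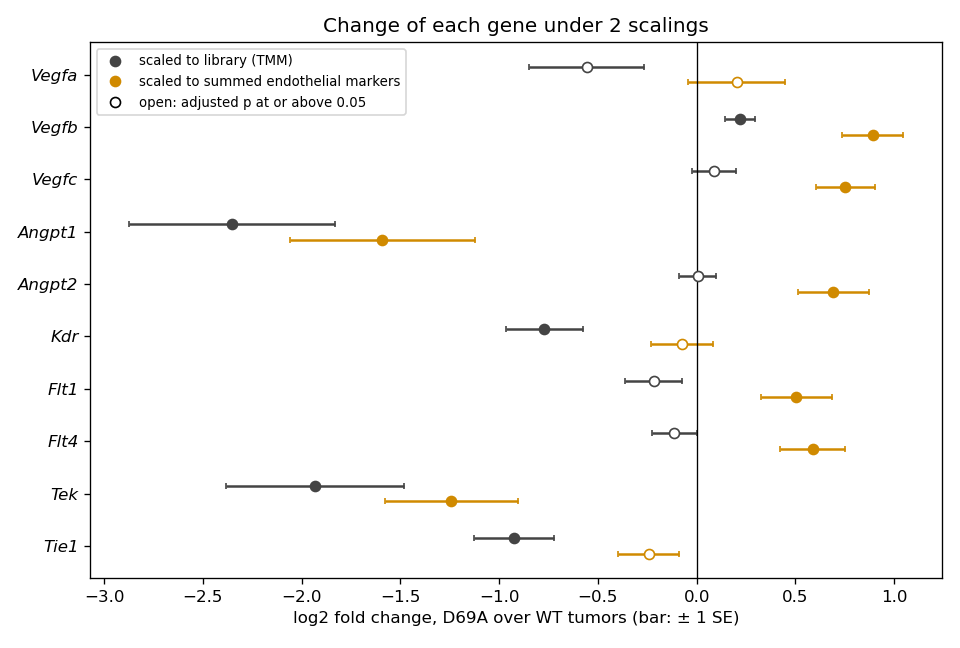
Log2 fold change of D69A over WT tumors (x axis) for each gene, with libraries scaled by TMM (grey) or by the summed endothelial markers (orange). Bars are 1 SE either side, filled points have an adjusted p under 0.05 and open points do not, and Kdr and Tie1 are filled under the first scaling and open under the second.

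**Figure D3:**
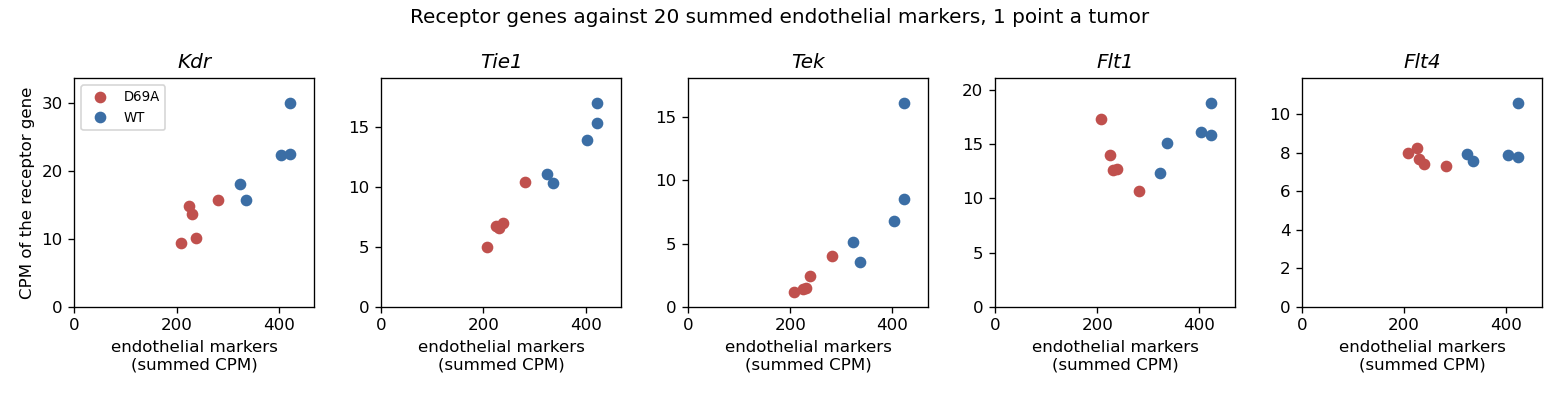
Level of each receptor gene in CPM (y axis, from 0) against the summed level of 20 endothelial markers in CPM (x axis, from 0), with 1 point for each D69A tumor (red) and WT tumor (blue). Kdr, Tie1 and Tek are lower where the markers are lower, whereas Flt4 lies between 7.32 and 10.6 CPM in all 10 tumors.

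Other cell types that can express these genes moved with the groups too. Mural markers summed to 72.6 to 96.3 CPM over 10 genes in D69A tumors and 105 to 147 CPM in WT tumors, with 4 of 9 tested genes lower and 0 higher. The lower genes were Rgs5, Acta2, Notch3 and Myh11. Pdgfrb (log2 fold change -0.14), Cspg4 (-0.37), Abcc9 (-0.03), Kcnj8 (0.46) and Cox4i2 (-0.60) did not pass. Macrophage markers, whose cells can carry Tek and Flt1, summed to 546 to 791 CPM over 10 genes in D69A tumors and 809.6 to 2139 CPM in WT tumors (8 of 10 lower, 0 higher). Fibroblast markers summed to 349 to 1323 CPM over 8 genes in D69A tumors and 2213 to 5957 CPM in WT tumors (8 of 8 lower). Platelet and megakaryocyte markers, from cells that also store angiopoietin 1, summed to 5.43 to 9.36 CPM over 6 genes in D69A tumors and 12.2 to 23.4 CPM in WT tumors. Pf4 made up most of it, at 4.62 to 8.11 CPM in D69A tumors and 10.4 to 20.9 CPM in WT tumors, and Ppbp was at 0 in 3 D69A tumors and 3 WT tumors. The part of these cell types in the lower Tek and Angpt1 levels was not tested. Melanocyte markers went the other way, with 7 of 10 higher in D69A tumors, 0 lower and a median log2 fold change of 0.51. Their part in the higher level of Vegfb and of other genes was not tested.

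The lymphatic markers beside Flt4 did not move together. Prox1, the transcription factor of lymphatic identity, stood at 8.85 ± 0.581 CPM in D69A tumors and 5.62 ± 0.519 CPM in WT tumors (SD, n = 5 each) and was higher in D69A tumors (log2 fold change 0.65, edgeR adjusted p = 0.00103). Melanocyte markers, given above, moved the same way as Prox1, and which cells made its RNA was not tested. Pdpn, which fibroblasts also make, was lower (-1.61, adjusted p = 0.00217), and Lyve1, which macrophages also make, did not pass (-1.74, adjusted p = 0.0596). The lymphatic chemokine gene Ccl21a was at 0 in 4 of 5 D69A tumors and 3 of 5 WT tumors, Mmrn1 at 0 in 4 D69A tumors and 1 WT tumor, and Reln was at most 0.574 CPM in any tumor. The summed level of the 6 lymphatic markers was 13.8 to 24.1 CPM in D69A tumors and 18.2 to 70.3 CPM in WT tumors, with overlap.

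Ratios between 2 genes within a tumor need no scaling between tumors and test directly whether the genes changed by different amounts. They reuse the counts of the fits above and were chosen with earlier results known. A ratio that differs is therefore not separate evidence that a gene changed. The ratios are of counts, so their size depends on the lengths of the genes, whereas their change between groups does not. The count ratio of Angpt2 to Angpt1 was 149, 149, 121, 409 and 407 in D69A tumors 1 to 5 and 61.9, 22.8, 57.99, 21.5 and 94.9 in WT tumors 2 to 6. Every D69A tumor was above every WT tumor, and D69A tumors 4 and 5 were the highest, where Angpt1 had only 5 counts each. The mean log2 ratio was 7.74 ± 0.86 in D69A tumors and 5.46 ± 0.95 in WT tumors (SD, n = 5 each), a difference of 2.28 on the log2 scale (two-sided exact permutation test, p = 0.00794, adjusted p = 0.0476 over the 8 ratios). This p is the smallest that 5 against 5 tumors can give.

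Of the other ratios, 3 passed. The count ratio of Angpt2 to its receptor gene Tek was 12.5, 47.8, 56.5, 43.7 and 25.3 in D69A tumors and 18.2, 7.06, 8.06, 3.80 and 13.9 in WT tumors, a difference of 1.88 on the log2 scale (exact permutation, p = 0.0238, adjusted p = 0.0476 over the 8 ratios). The ratio of Tie1 to Tek was 2.61, 4.69, 4.22, 4.32 and 2.90 in D69A tumors and 2.91, 1.998, 2.05, 0.947 and 2.18 in WT tumors, a difference of 0.94 on the log2 scale (exact permutation, p = 0.0238, adjusted p = 0.0476 over the 8 ratios). Tek thus fell by more than its partner receptor. The ratio of Flt4 to Kdr was 0.467, 0.560, 0.847, 0.560 and 0.737 in D69A tumors and 0.485, 0.353, 0.352, 0.347 and 0.440 in WT tumors, a difference of 0.66 on the log2 scale (exact permutation, p = 0.0159, adjusted p = 0.0476 over the 8 ratios). D69A tumor 1 lay within the WT range for all 3 of these ratios, and D69A tumor 5 did so for Tie1 to Tek. All 4 ratios sat just under the threshold, and with 1 tumor left out each missed it in 8 or 9 of 10 cases while its direction stayed. Their adjusted p are equal because the adjustment set all 4 by the largest exact p among them. Angpt2 to Angpt1 thus passed only together with the others, and Angpt2 to Tek and Tie1 to Tek both hold Tek. With 5 against 4 tumors the exact p cannot go below 0.0159 before adjustment over the 8 ratios. These misses therefore cannot tell dependence on a single tumor from the limit of the test.

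The remaining 4 ratios did not pass. Angpt1 to Tek differed by -0.39 on the log2 scale between D69A and WT tumors (exact permutation, p = 0.524, adjusted p = 0.524 over the 8 ratios), Vegfa to Kdr by 0.32 (exact permutation p = 0.333), Vegfc to Flt4 by 0.19 (p = 0.286, exact) and Kdr to Flt1 by -0.54 (p = 0.103, exact). For Angpt1 to Tek the D69A tumors spread widely, from 0.0621 to 0.468, against 0.139 to 0.310 in WT tumors.

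**Figure D4:**
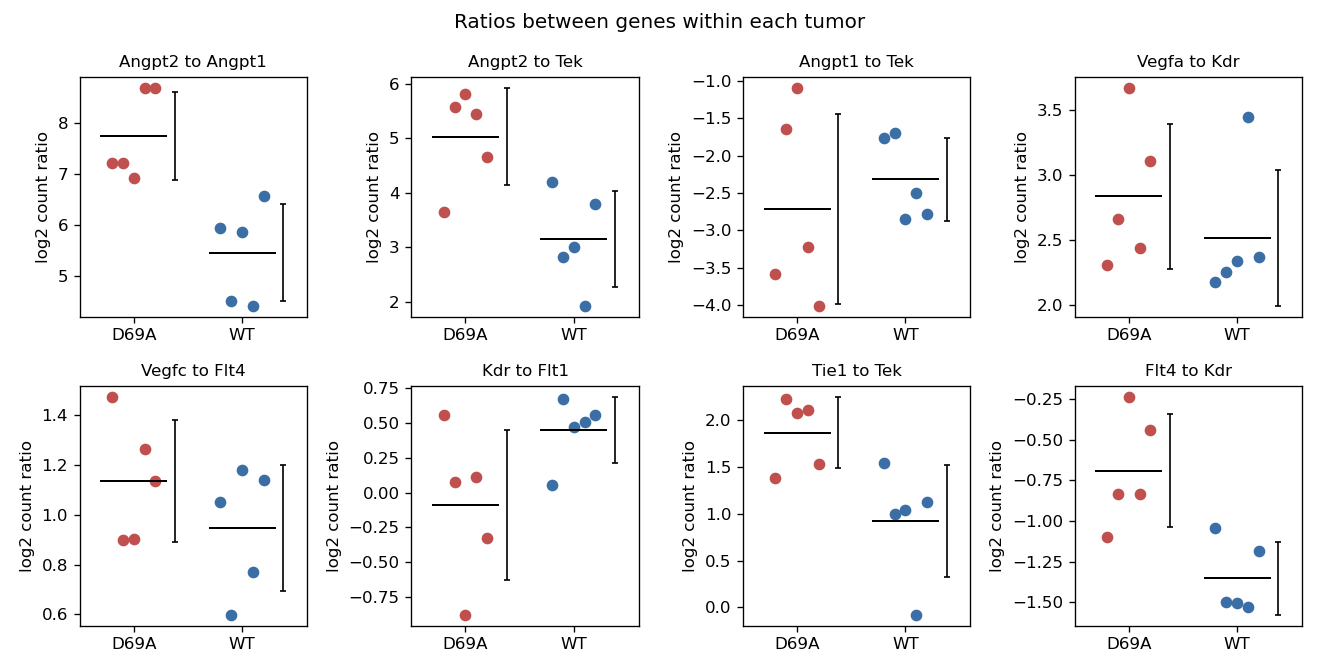
Log2 count ratio of 2 genes within each tumor (y axis; the scale differs between panels and does not start at 0) for the 8 ratios, in D69A tumors (red, left) and WT tumors (blue, right). The line is the mean and the bar the SD (n = 5 a group), and Angpt2 to Angpt1 is the ratio without overlap between the groups.

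The rest of the pathway was read from 5 lists of 58 genes, of which 56 were tested, 26 were lower and 7 higher in D69A tumors (background 24.7% and 18.8%). Of the other ligands and co-receptors, 2 of 7 tested were lower and 1 higher, with a median log2 fold change of -0.19. Vegfd, the second ligand of FLT4, stood at 0.855, 0.446, 0.691, 0.799 and 0.597 CPM in D69A tumors and at 1.47, 4.86, 1.91, 8.01 and 3.44 CPM in WT tumors. The groups did not overlap, and the log2 fold change was -2.53 (SE 0.45, edgeR adjusted p = 0.00152). Pgf, which encodes the FLT1 ligand placental growth factor, stood at 2.67, 3.20, 5.44, 3.17 and 4.48 CPM in D69A tumors and at 3.23, 9.26, 4.70, 14.4 and 4.44 CPM in WT tumors, and did not pass (log2 fold change -0.93, adjusted p = 0.0782). For both genes WT tumor 5 was the highest and WT tumor 3 the next, as for Angpt1, Vegfa and Tek. Summed fibroblast markers (5957 and 4995 CPM), macrophage markers (2139 and 1893 CPM) and T cell markers (87.1 and 82.3 CPM) had the same order. The part of these cell types in the shared order was not tested.

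The VEGF co-receptor genes Nrp1 and Nrp2 did not pass, with log2 fold changes of -0.19 and 0.19 (edgeR adjusted p = 0.276 and 0.171). Of the integrin genes, Itgb3 was lower (-0.70, adjusted p = 0.00494), Itga9, whose product binds VEGF-C and VEGF-D, was higher (0.50, adjusted p = 0.00223), and Itgav did not pass (0.25, adjusted p = 0.0819). Angpt4, a further angiopoietin gene, was not tested, with at most 0.437 CPM in any tumor.

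Extracellular regulators were lower in 9 of 13 tested cases and higher in 1, with a median log2 fold change of -1.36. Both thrombospondin genes, whose products restrain vessel growth, fell, Thbs1 to 52.02 ± 15.4 CPM in D69A tumors, against 162 ± 79.2 CPM in WT tumors, and Thbs2 to 19.7 ± 1.23 CPM in D69A tumors, against 50.7 ± 19.9 CPM in WT tumors (SD, n = 5 each; log2 fold changes -1.64 and -1.36). Svep1, a matrix protein gene needed for lymphatic vessels, was 4.81-fold lower, and Sema3g, an endothelial semaphorin gene, 3.23-fold lower. Fibroblast markers, which moved the same way, are given above, and their part in these changes was not tested.

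Intracellular signalling genes split, with 7 of 16 lower, 3 higher and a median of -0.15. Plcg1, which encodes the phospholipase that KDR activates, was higher (log2 fold change 0.38, edgeR adjusted p = 0.00135). Sh2d2a, an adaptor gene of KDR that T cells also use, was 7.28-fold lower, Vav3, an exchange factor gene, 3.19-fold lower, and Dok2, an adaptor gene of TEK that leukocytes also use, 3.68-fold lower. T cell markers summed to 6.98 to 22.5 CPM over 7 genes in D69A tumors and 29.7 to 87.1 CPM in WT tumors, with 7 of 7 lower. Their part in the lower Sh2d2a and Dok2 levels was not tested.

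Of the endothelial response genes, 7 of 12 were lower and 0 higher, with a median of -0.71. The receptor genes Notch1 and Notch4 were 2.43-fold and 1.85-fold lower, the Notch target Hey1 2.38-fold and the chemokine receptor gene Cxcr4 1.64-fold. Relative to the endothelial markers, Notch1 was also lower, though by less (-0.59, edgeR adjusted p = 0.00332), and Notch4 (-0.18), Hey1 (-0.56) and Cxcr4 (0.01) did not pass. T cell and macrophage markers, given above, were also lower in D69A tumors. The part of those cells in the levels of Notch1, Notch4, Hey1 and Cxcr4, on either scale, was not tested. Of the oxygen sensing genes upstream of Vegfa, 2 of 8 were higher and 1 lower, where 18.8% of all genes were called higher and 24.7% lower. Hif1a stood at 484 ± 62.6 CPM in D69A tumors and 348 ± 33.2 CPM in WT tumors (SD, n = 5 each; log2 fold change 0.48, edgeR adjusted p = 0.00308), and Epas1, which encodes HIF-2 alpha, had a log2 fold change of 0.51 (adjusted p = 0.00590). Hif1an, which encodes the asparagine hydroxylase that blunts HIF activity, was slightly lower (-0.14, adjusted p = 0.0366) and lost this call in 11 of 19 alternatives. Melanocyte markers, given above, moved the same way as Hif1a and Epas1, and their part in those levels was not tested. These are RNA levels, and HIF activity was not measured.

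**Figure D5:**
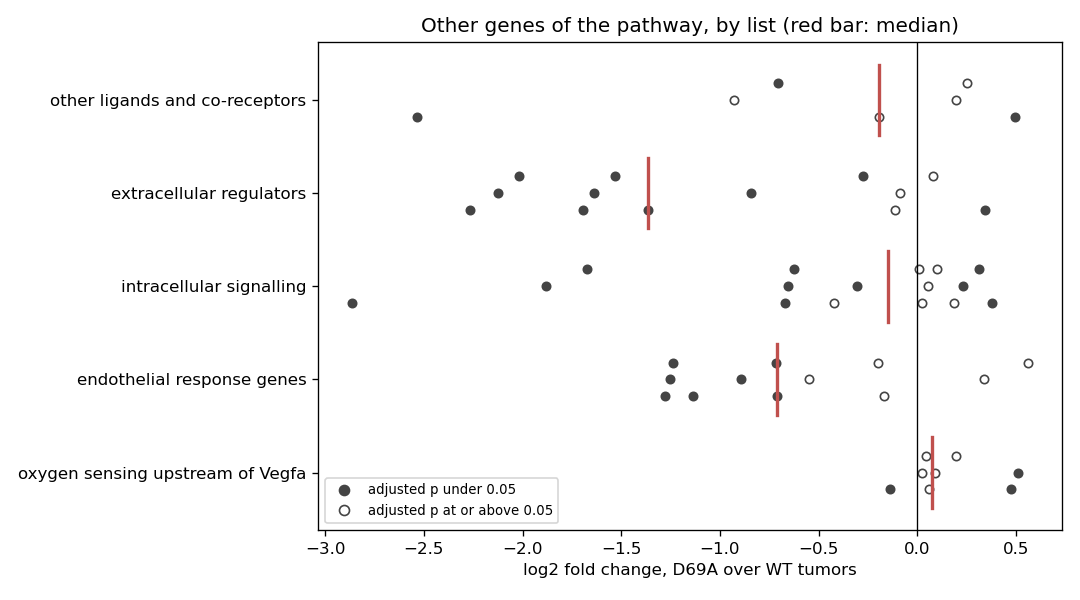
Log2 fold change of D69A over WT tumors (x axis) for each tested gene of the 5 pathway lists (rows), with filled points for an adjusted p under 0.05, open points for the rest and a red bar at each list's median. The extracellular regulators have the lowest median (-1.36) and the oxygen sensing genes the highest (0.07); points are set at 3 heights within a row only to keep them apart.

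The genes whose pattern over the 10 tumors was most like that of a given gene were found by the root mean square difference of log2 CPM after centring each gene on its own mean. Nearest to Kdr was Ptprb, the endothelial phosphatase gene that acts on TEK, at 0.125, followed by Ly75 (0.143) and Dnase1l1 (0.143), against a median of 0.536 over all genes. Nearest to Vegfa were Prkab2 (0.136), Unc13a (0.158) and Car9 (0.165), which encodes the hypoxia-induced carbonic anhydrase IX (median 0.566). Nearest to Angpt2, whose level varied little, were Tle4 (0.0518), Ubxn2a (0.0820) and Bcar3 (0.0822), with a median of 0.230.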

How the data were processed

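The authors deposited a table of read counts per Ensembl gene for the 10 tumors. The values are whole numbers with no scaling across libraries. Per the submitters' processing notes, fastp, HISAT, Bowtie, RSEM and the build mm10 were used, while their versions, what each was used for and whether reads were counted by strand are not stated in the sources used here. Counts from RSEM are estimates, so the deposited values may have been rounded. Symbols, coordinates and merged exon lengths came from GENCODE vM21 (17721 of 17737 identifiers matched), and promoters from RefSeq (GRCm38.p6).

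Genes were filtered with filterByExpr, scaled by TMM and tested with edgeR 4.0.16 (R 4.3.3) by the quasi-likelihood test, with Benjamini-Hochberg adjustment over 13798 genes. SEs were derived from the F statistic, and 95% intervals are 1.96 SEs either side. That multiplier is the one of a normal distribution, so the intervals are narrower than the F test behind the p-values implies. A second fit took the summed counts of 20 endothelial markers as library size. Log2 ratios used 0.5 added counts and exact permutation tests over 252 assignments. The floor of 3 counts reflects counting error alone. No pair of tumors of the same group agreed within sampling noise (smallest chi-square per degree of freedom 13.9), and pairs across the groups were not examined. The fits were tried on simulated counts, where 48% of genes changed 1.5-fold and 97% of genes changed 2-fold were recovered. The simulation gave every gene the same dispersion and changed far fewer genes than were called here. Its rates therefore need not hold for these tumors. Alternatives were DESeq2 1.42.0, limma-voom (limma 3.58.1), other scalings, filters, marker lists and added counts, a replicate block and leaving out tumors. The 10 genes, the lists and the tests were chosen with earlier results of these data known. The genes named were the 10, the other ligands and co-receptors, up to 4 genes of each pathway list with the smallest p past the threshold, and the 3 of at least 1 CPM nearest in pattern to Kdr, Angpt2 and Vegfa. Prox1, Pdpn, Lyve1, Ccl21a, Mmrn1, Reln, Pf4, Ppbp, Vwf and Sox17, named as markers, lie outside that rule and were picked with their values in view. All tested mural markers were named as well, also outside that rule.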

Additional observations from a re-analysis of the deposited data

Results flagged for a closer look

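A tumor was singled out where it lay far from all others of its group by Dixon's ratio at its 95% critical value. Of 36 sets of 5 tumors, 2 met this, and chance gives about 1 in 20 for independent normal values. Flt4 in WT tumor 3 stood at 10.6 CPM, apart from the other WT tumors (7.60 to 7.96 CPM). The log2 ratio of Vegfa to Kdr in WT tumor 5 was 3.45, apart from the other WT tumors (2.18 to 2.37).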

How the results depend on the processing

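Angpt1, Tek, Tie1 and Kdr stayed lower and called under every alternative that gave a value, with log2 fold changes from -2.57 to -2.02, -2.34 to -1.47, -1.15 to -0.78 and -0.90 to -0.62. A filter of at least 1 CPM in at least 5 tumors removed Angpt1, so 1 of the 10 genes was then called lower relative to endothelial markers, against 2. Genes called higher among the 10 numbered 0, against 1, without a low count filter, with upper quartile scaling, with library size only, without the 3 tumors highest in muscle markers and with the replicate number as a block, and 0 to 1 with 1 tumor left out. In each case Vegfb lost its call, and the cause was not tested. Over all genes, 1727 were higher without those 3 tumors, against 2594, with fewer samples. The labels do not say that the replicate numbers pair the tumors, and the tumors were treated as unpaired. Deviations of same-numbered tumors correlated at -0.44 to 0.19 over 4 pairs, and 2 of the 4 D69A tumors correlated best with their own number. So few pairs can neither show nor exclude a pairing. With the replicate block 5464 genes were called, against 6004, and Vegfb (edgeR adjusted p = 0.139) was the 1 call among the 10 genes that it ended. Ratio differences kept their sign. With 1 tumor left out they ranged from 2.02 to 2.55 for Angpt2 to Angpt1, 1.58 to 2.23 for Angpt2 to Tek, 0.69 to 1.10 for Tie1 to Tek and 0.55 to 0.76 for Flt4 to Kdr. Without the 3 tumors they were 2.22, 2.07, 1.13 and 0.66, where 4 against 3 tumors cannot go below an exact p of 0.0571. Angpt1 is the gene that depth limits most, with 5 counts in its lowest tumors.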
